A study of Homo sapiens with 4 samples.

Results

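Integrins and the proteins that tie them to actin were followed in H1299 cells exposed to methylparaben. The set held 35 genes of the 58735 in the deposited table, namely 12 integrin alpha chains, 6 integrin beta chains, 11 proteins that link integrins to actin and 6 signalling or LIM-domain adaptors. Members were chosen by gene symbol, their deposited transcript rows were joined to the raw counts by transcript identifier, and counts were summed per gene. H1299 is an established human line from a non-small-cell lung cancer, and it is the single line studied. RNA-seq was done on 2 libraries from cells kept for 48 h in 0.5 mM methylparaben, a phenolic ester added to cosmetics and foods against microbes, and on 2 libraries of ethanol control cells. The comparison asks which adhesion genes respond to the compound in this line. The design text speaks of duplicates without saying that these were separate cultures, so the p-values rest on the spread among 4 libraries, which may be technical.

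Integrins are cell surface receptors made of an alpha and a beta chain that bind extracellular matrix outside the cell. Inside the cell, talin and kindlin bind the beta chain and switch the receptor on. Vinculin, alpha-actinin, filamin and the complex of ILK, PINCH and parvin then tie it to actin, and focal adhesion kinase, paxillin and the Cas family pass signals on. In carcinoma cells these sites carry adhesion, spreading and migration.

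Library totals ran from 2068486 to 3760982 counts. The members took 0.0649% and 0.0593% of them in the control libraries (ethanol 1, then 2) and 0.0388% and 0.0424% in the treated ones. Of the mesenchymal markers AXL and VIM had 10251 and 557 reads over the 4 libraries, while ZEB1 and CDH2 had 4 and 1. None of the VIM reads lay on a protein-coding transcript. Of the epithelial markers CDH1, EPCAM and KRT19 had 0 reads, and KRT8 and KRT18 had 91 and 54. AXL and VIM were both lower with methylparaben, at -1.41 ± 0.20 and -1.19 ± 0.25 on the log2 scale (± SE). All 6 blood and immune markers and all 4 lung epithelial markers had 0 reads, 3 of 4 endothelial and 2 of 5 fibroblast markers had 0, and the others of those lists had 1 to 10.

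Only part of each gene appears to have been readable. In the deposited counts 70749 transcripts have no base that belongs to a single annotated transcript, and 0 of these were read. Reads thus appear to have been counted only through such bases, though the counting rule is not given. Such bases made up 0.213% of the exonic bases of ITGB6 and 94.3% of those of ITGA8, with a median of 40.3%, and 23 of the 35 members were under 50%. ITGA3, ACTN4 and FLNA had no such base in any protein-coding transcript, so their reads lay on other transcripts. Of the 35 members 28 had a read, and 14 passed the filter on low counts and were tested. The filter can pass a gene through the group in which it is high, so counts over the 14 describe the tested members and not the whole set.

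**Figure D1:**
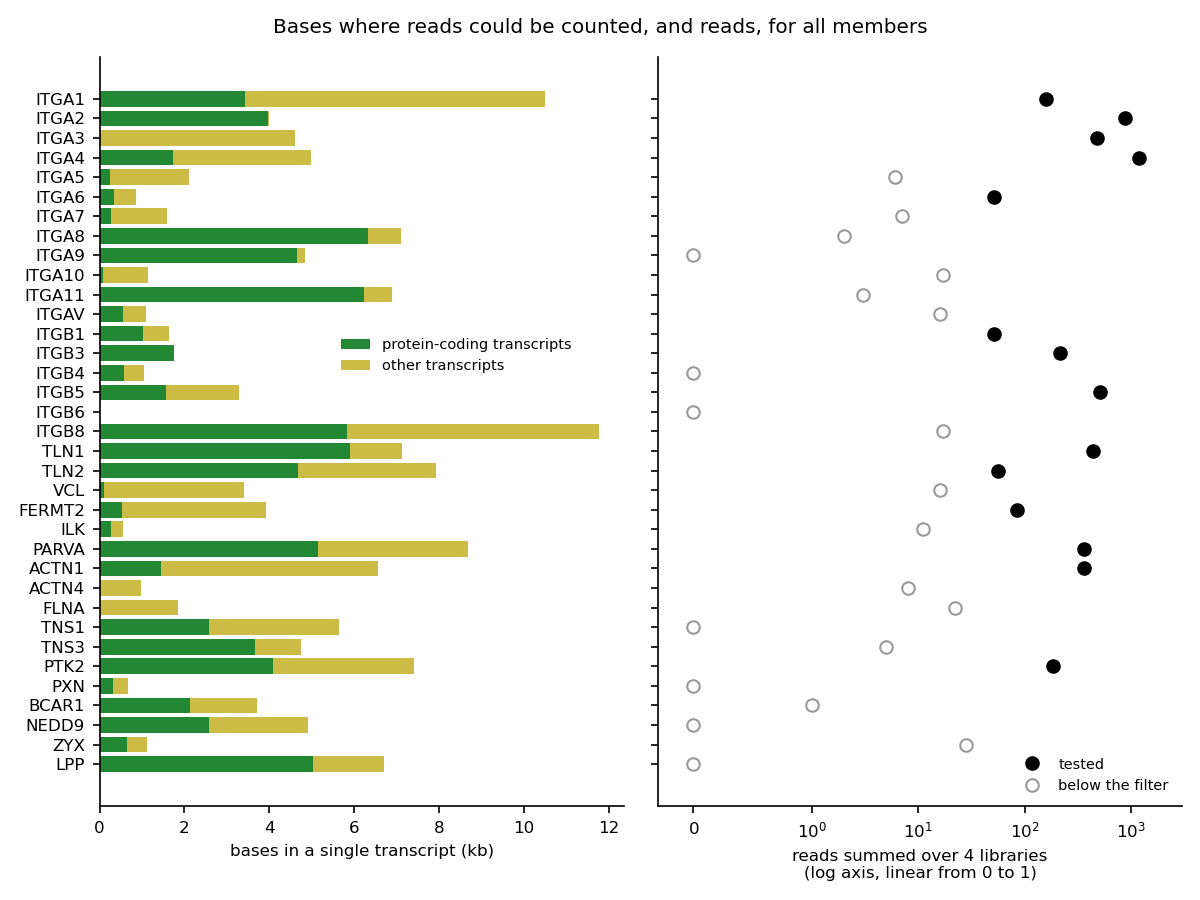
For each of the 35 members the left panel gives the single-transcript bases, in kb, split into protein-coding and other transcripts, and the right panel gives the reads summed over the 4 libraries on a log axis that is linear from 0 to 1. Filled points are the 14 tested members, ITGA4 has the most reads at 1184, and 7 members lie at 0.

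With methylparaben ITGA4, ITGB5 and PARVA fell 3.59-fold, 4.25-fold and 4.16-fold, and TLN1 rose 4.06-fold. These 4 of 14 tested members passed the threshold (edgeR quasi-likelihood test, Benjamini-Hochberg adjusted p under 0.05 over 8055 genes, 2 libraries per group), 1 higher and 3 lower. Over all genes tested 36.9% were called, 18.5% higher and 18.4% lower, so the share of members called was not above that of all genes. Their median log2 fold change was -0.14, against 0.03 over all genes tested. The groups did not overlap for 9 of the 14, against 70.5% of all genes. Counts are shares of a library made from many cells, so less RNA per cell and fewer cells that express a gene cannot be told apart.

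**Figure D2:**
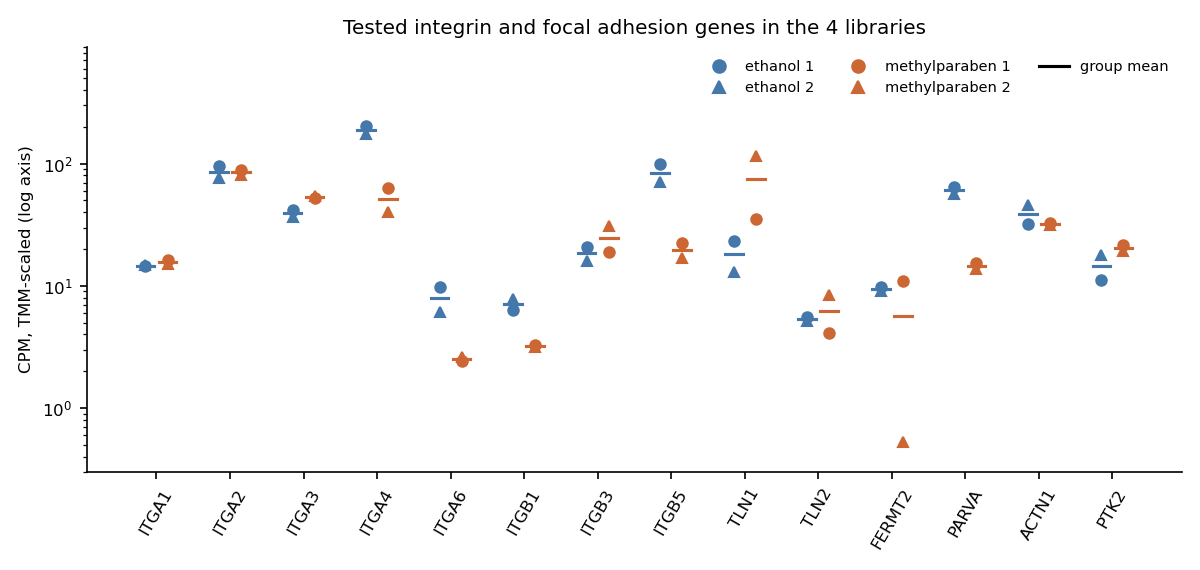
TMM-scaled CPM on a log axis for the 14 tested members, with circles for replicate 1, triangles for replicate 2 and bars at the group means. ITGA4, ITGB5 and PARVA are lower in both methylparaben libraries, TLN1 is higher, and FERMT2 is at 0.523 CPM in methylparaben 2 against 10.9 in methylparaben 1.

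Among the alpha chains, which set an integrin's ligand jointly with the beta chain, ITGA4 had the most counts in each control library. Of 5 tested it was the only 1 called. ITGA4 (ENSG00000115232.13, chromosome 2, 181457202 to 181536187, plus strand, GRCh38) encodes the alpha 4 chain, which pairs with the beta 1 or beta 7 chain and binds VCAM1 and fibronectin. It was at 202 and 173 CPM (counts relative to library size, scaled by TMM, a trimmed mean of log ratios) in ethanol 1 and 2 and at 62.9 and 40.3 CPM in methylparaben 1 and 2. Both treated libraries lay far under both controls, with means of 188 ± 20.7 and 51.6 ± 15.9 CPM (SD, n = 2 each). The log2 fold change was -1.84 ± 0.24 (SE) with an adjusted p of 0.000547. Of its reads 96.4% lay on the protein-coding transcript ITGA4-203, where 669 of the 1329 single-transcript bases are coding sequence. ITGA4-203 alone gave -1.85 ± 0.24 (adjusted p = 0.000428). The retained-intron transcript ITGA4-204 gave 7, 8, 0 and 1 counts over the same libraries.

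ITGA2, the collagen-binding alpha 2 chain, had the most reads among the members not called. It was at 96.1 and 75.7 CPM in ethanol and 88.7 and 81.1 CPM in methylparaben, so that the groups overlapped. Its log2 fold change was -0.02 ± 0.22 with an adjusted p of 0.968, and every read lay on its protein-coding transcript ITGA2-201. The 3959 single-transcript bases of ITGA2-201 are all outside the coding sequence. ITGA3, a laminin-binding chain, was at 42.1 and 36.4 against 52.2 and 54.4 CPM, a log2 fold change of 0.44 ± 0.25 that did not pass (adjusted p = 0.191). Retained-intron transcripts held 99.4% of the ITGA3 reads. ITGA6, another laminin-binding chain, was at 9.78 and 6.06 against 2.45 and 2.62 CPM. Its log2 fold change of -1.64 ± 0.58 fell just short of the threshold (adjusted p = 0.0503, and 0.0342 to 0.419 over its alternatives), and 98.0% of ITGA6 reads came from retained-intron transcripts.

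ITGA1, a collagen-binding chain, was not called as a gene, at 14.5 and 14.7 against 16.3 and 15.2 CPM (0.11 ± 0.36, adjusted p = 0.829), while 1 of its transcripts was. The protein-coding ITGA1-201 had 29 and 27 counts in the controls and 37 and 16 in the treated libraries, a log2 fold change of -0.39 ± 0.43 that did not pass (adjusted p = 0.499). The retained-intron ITGA1-204 had 0, 4, 20 and 12 counts and was called higher at 2.67 ± 0.89 (adjusted p = 0.0362), a call lost without ethanol replicate 1 (1.66, adjusted p = 0.256) or without either methylparaben library (adjusted p = 0.181 and 0.207). The difference between these transcripts was not tested.

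The remaining alpha chains lay below the filter. ITGA10, a collagen-binding chain, had 9 and 7 counts in ethanol and 1 and 0 in methylparaben, so methylparaben over ethanol came to 0.0488 (95% interval 0.00116 to 0.314, exact binomial, counting error only), and 94.1% of these reads were on a retained-intron transcript. ITGAV, a partner of ITGB3, ITGB5, ITGB6 and ITGB8, had 4, 5, 4 and 3 counts, which gives 0.607 (95% interval 0.192 to 1.83). ITGA5, the fibronectin receptor chain, had 0, 1, 3 and 2 counts, and ITGA7, ITGA8 and ITGA11 had 7, 2 and 3 in all. ITGA9 had 0 in every library, which allows up to 0.798 to 1.45 CPM depending on the library, taking 3 counts as the limit.

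Among the beta chains 3 of 6 were tested, and ITGB5 fell while ITGB3 and the thinly read ITGB1 did not pass. ITGB5 (ENSG00000082781.11, chromosome 3, 124761948 to 124901418, minus strand) encodes the beta 5 chain of a vitronectin receptor that it forms with ITGAV. It was at 98.7 and 70.1 CPM in ethanol and 22.3 and 16.7 CPM in methylparaben. The lowest control was thus above the highest treated library, with means of 84.4 ± 20.2 and 19.5 ± 3.93 CPM (SD, n = 2 each). The log2 fold change was -2.09 ± 0.29 with an adjusted p of 0.000676. ITGB5-201, a protein-coding transcript with 99.2% of the reads, was at -2.10 ± 0.29. Only 70 of its 1367 single-transcript bases are coding sequence.

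ITGB3, the other vitronectin receptor beta chain measured here, was at 20.8 and 16.0 CPM in ethanol and 18.8 and 30.9 CPM in methylparaben. The groups overlapped, and the log2 fold change of 0.40 ± 0.37 did not pass (adjusted p = 0.413). ITGB1, the common partner of ITGA1 to ITGA11, was at 6.38 and 7.79 against 3.27 and 3.14 CPM, from 15, 18, 12 and 6 counts. Its log2 fold change of -1.13 ± 0.55 did not pass (adjusted p = 0.133). Only 27.1% of its exonic bases belong to a single transcript. Its 2 best-read transcripts were below the filter and not tested. They had 8, 9, 0 and 0 counts for ITGB1-212 and 5, 2, 9 and 2 for ITGB1-209. Both are short protein-coding models with no coding base among their single-transcript bases. ITGB8, a TGF-beta-activating chain, had 12 and 5 counts in ethanol and 0 in both methylparaben libraries, a ratio between 0 and 0.189 by the same 95% interval. ITGB4 and ITGB6 had 0 counts throughout, ITGB6 having 10 single-transcript bases.

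**Figure D3:**
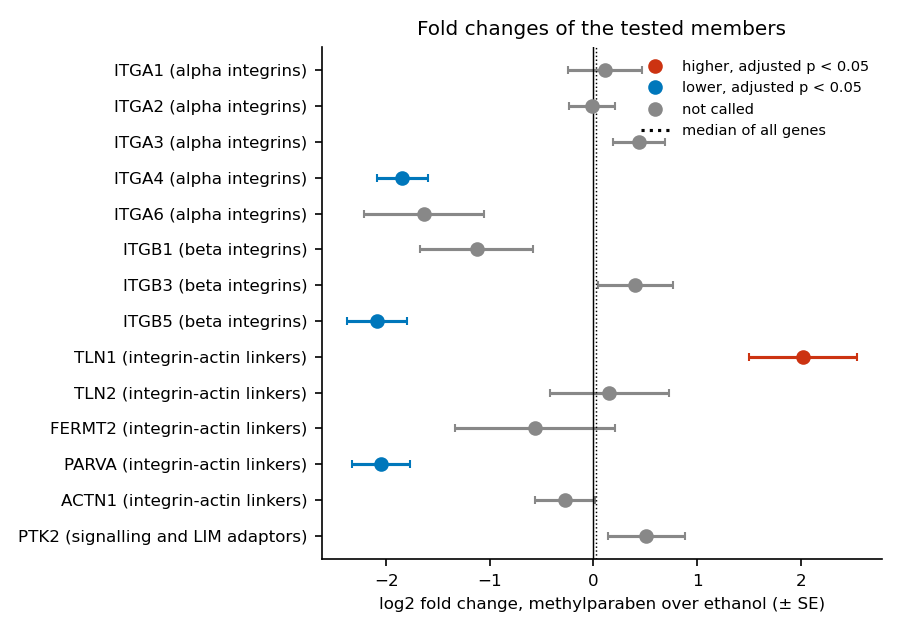
Log2 fold change of methylparaben over ethanol with its SE (horizontal axis) for the 14 tested members, with the role of each in parentheses, the dotted line at the median of all genes and colour for calls at an adjusted p under 0.05. ITGA4, ITGB5 and PARVA lie between -1.84 and -2.09, TLN1 at 2.02, and the other 10 members are not called.

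Of the 11 proteins that link integrins to actin 5 were tested, and 1 rose and 1 fell. TLN1 (ENSG00000137076.20, chromosome 9, 35696948 to 35732395, minus strand) encodes talin 1, the protein that binds integrin beta tails and activates the receptor. It was at 23.4 and 13.0 CPM in ethanol and at 35.1 and 116 CPM in methylparaben. Both treated libraries were above both controls, but they differed widely from each other, with means of 18.2 ± 7.36 and 75.4 ± 57.0 CPM (SD, n = 2 each). The log2 fold change was 2.02 ± 0.52 with an adjusted p of 0.0134. Without methylparaben replicate 2 it was 0.98, and DESeq2 and limma voom did not call it (adjusted p = 0.0716 and 0.0543, against 9.24e-16 to 0.0716 over all alternatives). Its reads lay on the protein-coding TLN1-201 for 98.2%, with 4832 of 5905 single-transcript bases in coding sequence. TLN2, the second talin, was at 5.53 and 5.19 against 4.08 and 8.37 CPM and did not pass (0.15 ± 0.57, adjusted p = 0.862).

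PARVA (ENSG00000197702.12, chromosome 11, 12377185 to 12535356, plus strand) encodes alpha-parvin, the actin-binding member of the complex with ILK. It was at 64.2 and 56.7 CPM in ethanol and 15.2 and 13.6 CPM in methylparaben. The libraries of each group lay close together, with means of 60.5 ± 5.32 and 14.4 ± 1.15 CPM (SD, n = 2 each). The log2 fold change was -2.06 ± 0.28 with an adjusted p of 0.000642, and 99.2% of the reads lay on the protein-coding PARVA-207. Its 4555 single-transcript bases are all outside the coding sequence. ILK itself, the kinase-like scaffold of that complex, had 0 and 1 counts in ethanol and 6 and 4 in methylparaben, 7.81 times as many per library size (95% interval 1.11 to 339), all on a noncoding processed transcript.

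FERMT2, which encodes kindlin-2, a second activator of beta chains, was at 9.78 and 9.09 CPM in ethanol and 10.9 and 0.523 CPM in methylparaben. A single treated library was therefore low, and the log2 fold change of -0.57 ± 0.78 did not pass (adjusted p = 0.600), while without methylparaben replicate 1 it was -4.04 (adjusted p = 0.00464). Retained-intron transcripts held 98.8% of its reads. ACTN1, an alpha-actinin that cross-links actin, was at 31.9 and 45.9 against 32.9 and 31.4 CPM and did not pass (-0.27 ± 0.29, adjusted p = 0.493). Its protein-coding transcript ACTN1-201 was at -0.82 ± 0.42 and its retained-intron transcripts ACTN1-211 and ACTN1-216 at 0.67 ± 0.60 and -0.24 ± 0.41, none of them called.

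FLNA, the actin cross-linker filamin A, had 2 and 0 counts in ethanol and 4 and 16 in methylparaben, likewise 7.81 times as many (95% interval 1.90 to 68.9). Of the 22 reads 16 came from methylparaben 2, the library where TLN1 was highest too, and all of them lay on retained-intron transcripts. ACTN4, the other nonmuscle alpha-actinin, had 0, 1, 1 and 6 counts, also on retained-intron transcripts. VCL, which encodes vinculin and strengthens the talin link, had 3, 2, 5 and 6 counts, or 1.72 times the control level (95% interval 0.550 to 6.31). TNS3 had 5 counts in all and TNS1 had 0, both being tensins that bind beta tails.

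The signalling members were mostly out of reach. PTK2, which encodes focal adhesion kinase, was at 11.1 and 17.7 CPM in ethanol and 21.5 and 19.4 CPM in methylparaben. The groups did not overlap, but the log2 fold change of 0.51 ± 0.37 did not pass (adjusted p = 0.308). Its reads were spread over 17 of 57 transcripts, 50.3% on protein-coding, 31.7% on noncoding processed and 18.0% on retained-intron transcripts. ZYX, the LIM protein zyxin that gathers at stretched actin fibres, had 5, 4, 10 and 9 counts, or 1.65 times the control level (95% interval 0.711 to 4.14). PXN (paxillin), NEDD9 of the Cas family and LPP, a zyxin relative, had 0 counts in all libraries, and BCAR1, which encodes the founding Cas protein, had 1. For LPP this was so although 5022 single-transcript bases lie in its protein-coding transcripts, so a count of 0 here does not show that the gene is silent.

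Counts per length follow for the 10 protein-coding transcripts with at least 15 reads and over 1 kb of single-transcript bases. These bounds were set after seeing the values. Whether such counts rank the RNA levels of different genes was not tested. LPP had 0 reads on 6712 single-transcript bases, and the share of such bases in coding sequence differs between the transcripts. The CPM (of the library total) per kb of such bases was 144 and 134 for ITGA4-203, 70.4 and 54.3 for ITGB5-201, 24.1 and 20.3 for ITGA2-201 and 14.0 and 13.2 for PARVA-207 in ethanol 1 and 2. On the same scale TLN1-201 was at 3.93 and 2.33, and ITGB3-201 at 12.3 and 10.1. In methylparaben 1 and 2 the values were 44.8 and 27.6 for ITGA4-203, 15.9 and 11.3 for ITGB5-201 and 21.9 and 18.9 for ITGA2-201. They were 3.27 and 2.44 for PARVA-207, 5.49 and 18.0 for TLN1-201 and 10.9 and 16.9 for ITGB3-201. On this scale ITGB5-201 was thus above ITGA2-201 in both controls and below it in both treated libraries. ITGA4-203 was the highest of the 10 in every library, a rank that depends on the 1 kb bound. ACTN1-201 and ZYX-205, left out with 353 and 156 single-transcript bases, were at 28.8 and 27.9 in methylparaben 2, above ITGA4-203. In the other libraries both were below it. ITGA1-201 ran from 2.25 to 3.60, TLN2-209 from 0.704 to 1.07 and PTK2-206 from 0 to 1.45, and ITGB8-201 was at 0.934 and 0.423 in the controls and at 0 in both treated libraries.

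Of the 468 annotated transcripts of the members 91 had a read, and 16 passed the filter. Of these 16, 5 were called, against 39.4% of all transcripts tested. ITGA4-203, ITGB5-201 and PARVA-207 were lower, and kept their calls under all 12 alternatives, and TLN1-201 and ITGA1-204 were higher. ITGA1-204 was not called under 6 of 12 (adjusted p = 0.0252 to 0.256) and TLN1-201 under 4 (adjusted p = 1.725e-14 to 0.0955), DESeq2 and the fit without methylparaben replicate 2 among them for both. Retained-intron transcripts held 14.9% and 14.8% of the members' reads in ethanol and 24.5% and 22.5% in methylparaben, and 2.73% and 2.74% against 4.22% and 3.95% over all genes. These shares also move when protein-coding counts fall. Without retained-intron transcripts 10 members were tested and 4 called, again 1 higher and 3 lower. Over all genes tested in that setting 35% were called. In the authors' deposited table an adjusted p under 0.05 was given for 9 member transcripts and for 4471 transcripts in all, the 9 being the 5 called here together with ITGB8-201, ITGA10-202, ITGA4-204 and ITGB1-212.

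**Figure D4:**
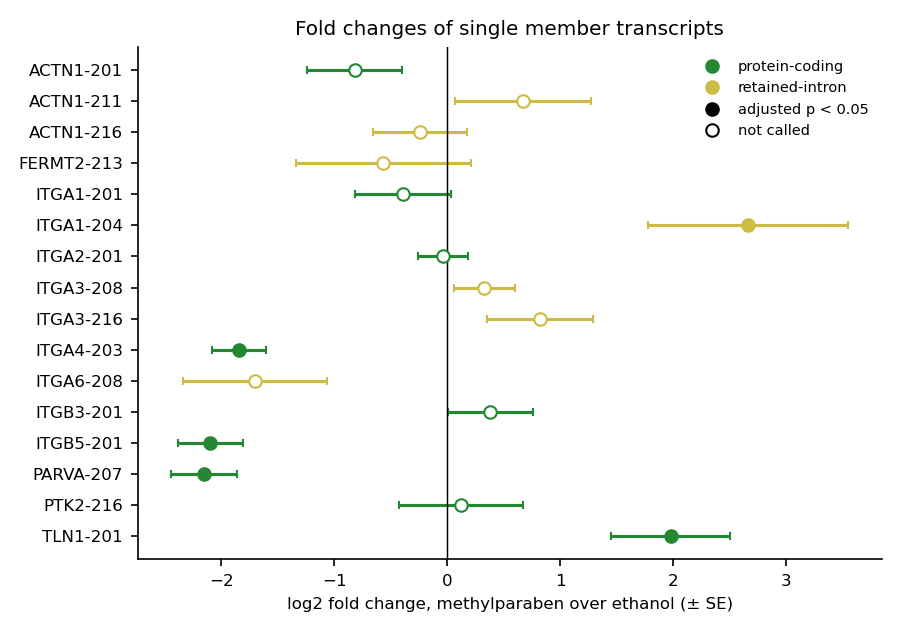
Log2 fold change with its SE (horizontal axis) for the 16 member transcripts that passed the filter, green for protein-coding and yellow for retained-intron transcripts, filled where the adjusted p was under 0.05. ITGA1-204 at 2.67 and ITGA1-201 at -0.39 are transcripts of the same gene.

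The start regions of the members that changed are shown because these genes moved and TLN1 moved against the others. The windows are from RefSeq on GRCh38.p14, 5′ to 3′ on the gene's strand, from 250 bases before the start to 50 after, and for ITGB5 the nearest of 3 windows to the counted transcript was taken. PARVA, ITGA3, ITGA7, ITGA9, ITGB3, ITGB4 and PTK2 were not in the table, which held 56 windows of 28 members. Capitals mark GC boxes (GGGCGG or its complement CCGCCC), which were the only searched motif found in these 3 windows.
ITGA4, chr2:181457136-181457435, plus strand: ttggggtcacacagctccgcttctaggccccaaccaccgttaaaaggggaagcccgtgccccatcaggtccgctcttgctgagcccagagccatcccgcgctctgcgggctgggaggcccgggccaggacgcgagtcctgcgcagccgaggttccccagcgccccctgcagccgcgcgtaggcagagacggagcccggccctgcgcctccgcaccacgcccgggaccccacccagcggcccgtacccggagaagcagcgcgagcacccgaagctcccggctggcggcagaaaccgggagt
ITGB5, chr3:124887316-124887615, minus strand: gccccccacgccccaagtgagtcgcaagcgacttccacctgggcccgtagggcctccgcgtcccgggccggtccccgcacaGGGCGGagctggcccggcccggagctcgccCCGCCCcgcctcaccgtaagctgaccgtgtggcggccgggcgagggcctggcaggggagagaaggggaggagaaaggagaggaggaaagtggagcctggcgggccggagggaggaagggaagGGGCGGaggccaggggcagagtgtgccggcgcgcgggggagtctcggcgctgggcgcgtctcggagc
TLN1, chr9:35732146-35732445, minus strand: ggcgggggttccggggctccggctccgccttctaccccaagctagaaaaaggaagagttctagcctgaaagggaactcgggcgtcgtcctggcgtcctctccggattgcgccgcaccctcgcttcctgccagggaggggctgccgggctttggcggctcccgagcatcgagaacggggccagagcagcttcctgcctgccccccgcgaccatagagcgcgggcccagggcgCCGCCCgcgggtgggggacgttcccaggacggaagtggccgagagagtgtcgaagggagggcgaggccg

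The counted transcripts ITGA4-203 and TLN1-201 start 161 and 200 bases upstream of these RefSeq starts, and ITGB5-201 starts 68 bases downstream. The marked GC box of TLN1, at -19 from the RefSeq start, thus lies downstream of the start of TLN1-201. For ITGB5, 0 GENCODE transcripts of the gene held the bases just after the RefSeq start. All 3 windows were rich in G and C, at 72.3%, 75.7% and 70.3%, with 31, 32 and 31 CG dinucleotides. ITGB5 held 3 GC boxes, TLN1 held 1 and ITGA4 held 0, and GC boxes were found in 31 of the members' 56 windows and in 45.0% of all 35116 windows. The other motifs were searched on both strands too, and no match in these 3 windows overlapped another. The TEAD motif (GGAATG or CATTCC) was in 10 of 56 member windows and 14.0% of all, AP-1 (TGANTCA) in 6 and 7.71%, and CCAAT (or ATTGG) in 11 and 34.6%. The CArG box of the serum response factor was in 4 of 56, belonging to ACTN1, FLNA, ITGB6 and LPP, and in 1.29% of all windows.

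Other proteins of adhesion complexes were called in both directions. Of 49 such genes 10 were tested, of which 3 rose and 1 fell, with a median log2 fold change of -0.39. Over all genes 36.9% were called, 18.5% higher and 18.4% lower, and the median was 0.03. ARHGEF7, the exchange factor beta-PIX that acts on RAC1 and CDC42, was at 1.28 and 0.866 CPM in ethanol and 10.1 and 16.2 CPM in methylparaben (3.53 ± 0.64, adjusted p = 0.00280). It had 5 counts in the controls, so the size of its change is loosely set. PPFIBP1, a liprin, rose by 1.43 ± 0.28 on the log2 scale, from 17.4 and 20.8 to 49.2 and 53.9 CPM. CRKL, an adaptor that binds paxillin and Cas, rose by 0.80 ± 0.19, from 168 and 146 to 238 and 311 CPM, with every read on a protein-coding transcript. ENAH, an actin-elongating protein, fell by 0.75 on the log2 scale (SE 0.26), with an adjusted p of 0.0483. It was not called under 9 of 17 alternatives (adjusted p = 0.00125 to 0.217), DESeq2 and the fits without ethanol replicate 1, ethanol replicate 2 or methylparaben replicate 2 among them.

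Of the listed integrin ligands, the secreted matricellular proteins CTGF, CYR61 and THBS1 fell, at -3.36 ± 0.18, -1.66 ± 0.18 and -2.11 ± 0.32 on the log2 scale. LAMC1, a laminin chain, did not pass (0.13 ± 0.18). FN1, the fibronectin gene, had 31 reads in all, every one on a retained-intron transcript, and was not tested. The integrin chains of leukocytes and platelets had too few reads for a test, 5 of 8 having 0 and ITGAE the most with 17.

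**Figure D5:**
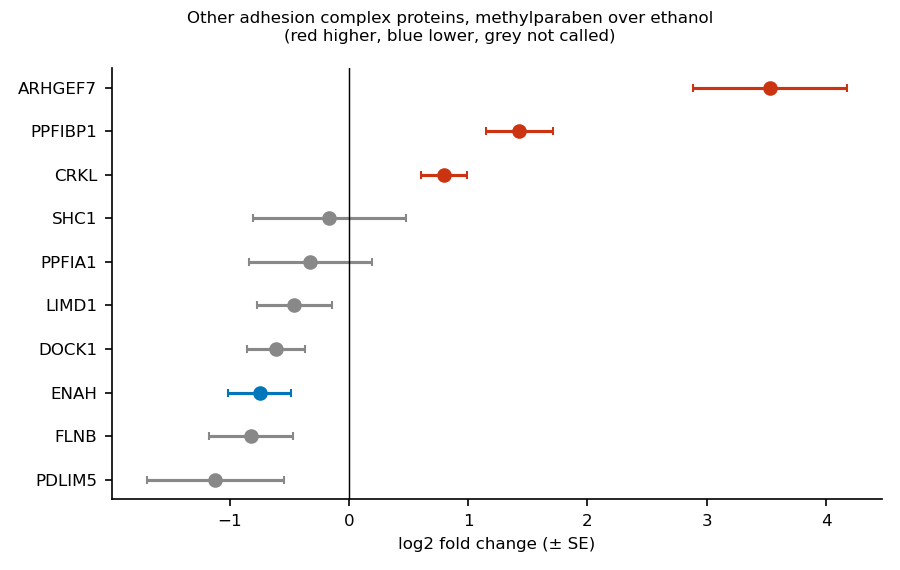
Log2 fold change of methylparaben over ethanol with its SE (horizontal axis) for the 10 tested genes among other adhesion complex proteins, with red for higher and blue for lower calls at an adjusted p under 0.05. ARHGEF7 lies at 3.53, PPFIBP1 at 1.43 and CRKL at 0.80, and ENAH at -0.75 is the lower call.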

How the data were processed

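Poly(A)-selected RNA of 4 H1299 libraries was sequenced after Trizol extraction and Illumina TruSeq preparation, per the labels' protocols. Raw read counts for each annotated transcript were deposited, and a further table of the authors holds FPKM, log2 of FPKM plus 1 and the p-value and adjusted p-value from their own test, per the file headers. The submitters' processing notes list GRCh38, DESeq2, limma and edgeR. Which aligner and counter made the counts is not given in the sources used here. All 206601 transcripts were found at the same coordinates in GENCODE release 29, from which single-transcript bases were derived regardless of strand, so antisense reads cannot be told apart.

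Counts were summed per gene. Genes were filtered with filterByExpr (minimum count 10, total 15), scaled with TMM (a trimmed mean of log ratios) and put through the two-sided quasi-likelihood test in edgeR 4.0.16 (R 4.3.3). The p-values were adjusted after Benjamini and Hochberg across every tested gene, with a threshold of 0.05. The same test was run on transcripts. The SE is the log2 fold change over the square root of F. The script was tested on simulated data. Every member is named, and of each other list up to 4 called genes by smallest p, beside a few genes named after their values were seen (LAMC1, FN1, ITGAE). Some listed genes are not reported here. Members and lists were chosen with earlier results of these data known. Alternatives used limma 3.58.1 and DESeq2 1.42.0.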

Additional observations from a re-analysis of the deposited data

How the results depend on the processing

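ITGA4, ITGB5 and PARVA kept their direction and their call under all 17 alternatives each, at -2.23 to -1.55, -2.34 to -1.85 and -2.16 to -1.41 on the log2 scale. TLN1 was higher under all 17, at 0.98 to 2.66, and called under 15. With no filter 7 of 28 members were called, against 14.2% of 22450 genes. The added members were ITGA10 (-3.96, adjusted p = 0.03945), ITGB8 (-6.23, 0.00560) and FLNA (3.23, 0.0420). The number of members called was 3 to 5 under the other settings on all 4 libraries. Without a single library it was 4 to 6. Limma on log2 FPKM, over the genes that passed the count filter, called 2 other adhesion complex proteins with either pseudocount (1 or 0.1), and leaving out a library gave 2 to 5 of them. DESeq2 called 3 member transcripts, and leaving out a library gave 3 to 6. The cause of these shifts was not tested, and a group left with 1 library is assumed to vary like the other. No called member changed sign. Of members not called, 5 changed sign under some alternative and were not called there in the opposite direction. ACTN1 was at 0.39 and 0.42 with limma on FPKM plus 1 and plus 0.1, where TLN2 was at -0.49 and -0.93 and ITGA1 at -0.047 and -0.071. ITGA1 was at -0.31 without retained-intron transcripts and -0.24 with protein-coding transcripts alone, where ITGA2 was at 0.068 and 0.11. With limma voom TLN2 was at -0.046 and ITGA2 at 0.00077, and with upper-quartile scaling ITGA2 was at 0.0017. Leaving out a library gave -0.53 to 0.026 for ACTN1, -4.04 to 0.24 for FERMT2, -0.16 to 0.14 for ITGA2 and -0.36 to 0.63 for TLN2.

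With the replicate number as a block 4 members and 4 member transcripts were called (ITGA1-204 at an adjusted p of 0.0682 and ENAH at 0.0677 no longer passing), and 2488 of all genes against 2976. Over all genes the count was 1677 without ethanol replicate 1 and 1899 with limma on FPKM plus 0.1. The labels give the numbers no meaning, and deviations of same-numbered libraries correlated at -0.15 across genes, so they were not taken as pairs. A crossed block, added after seeing the data, called 4 members and 3292 genes. Scaling by library size only moved the median log2 fold change of all genes from 0.03 to -0.08 and called 5 members, ITGA6 joining the lower ones (adjusted p = 0.0355). Of the members 14 had a read but too few for the test, and 7 had none, and why was not tested.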
